A study of Mus musculus with 9 samples.

Results

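The Schnurri family of large zinc finger proteins has 3 members in the mouse, encoded by *Hivep1*, *Hivep2* and *Hivep3*, and all 3 were found among the 55416 genes of the count table and among the 13679 genes tested. The members were chosen by name, as regulators of osteoblast activity, after earlier results of these libraries had shown more *Hivep3* with BGP than in either of the other conditions. The measured values of *Hivep3* were therefore part of the choice, and they are given below as a description without a test, while *Hivep1* and *Hivep2* were tested. Transcripts were sequenced in MC3T3-E1 cells, which are a wild-type line of mouse pre-osteoblasts from calvarial bone and mature toward osteocyte-like cells. All cells had been kept in osteogenic medium with 10 mM β-glycerophosphate (BGP, an organic phosphate), ascorbic acid and dexamethasone. They then received 4 mM BGP, 4 mM NaHPO4 (a mixture of the sodium phosphates, inorganic) or no phosphate beyond that of the medium (Control) at day 27 for 16 h, with 3 libraries per condition. The labels give BGP throughout differentiation, whereas the methods of the study withdraw it for the last week, so how long the Control cells had been without BGP is not settled. A single cell line was used, and the labels do not say whether the 3 libraries of a condition came from separate cultures, so the p-values measure the spread between these libraries, which may be technical.

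Schnurri proteins carry widely spaced pairs of C2H2 zinc fingers, with which they bind DNA resembling the κB site, and they also act as adaptors that bring other regulators together. Schnurri-3, the product of *Hivep3*, is best known in bone, where it restrains osteoblasts: it recruits the ubiquitin ligase WWP1 to RUNX2 and dampens ERK signaling, and mice without it gain bone mass. Schnurri-1 and Schnurri-2, the products of *Hivep1* and *Hivep2*, act with SMAD proteins downstream of BMP receptors, and Schnurri-2 also holds back NF-κB.

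The second finger pair is shown because of the stretches compared it is the one in which the proteins of the members are most alike. Whether reads could be assigned to the wrong member depends on the bases, which were compared in windows of 50 bases, as given below. The coding sequences below were read from GRCm39 with the GENCODE annotation, each holds 153 bases, and the capitals mark the codons of the cysteines and histidines that hold the zinc.
Hivep1: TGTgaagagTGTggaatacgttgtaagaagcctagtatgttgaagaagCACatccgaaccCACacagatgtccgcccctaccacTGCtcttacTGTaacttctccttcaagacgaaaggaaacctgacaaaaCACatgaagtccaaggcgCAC
Hivep2: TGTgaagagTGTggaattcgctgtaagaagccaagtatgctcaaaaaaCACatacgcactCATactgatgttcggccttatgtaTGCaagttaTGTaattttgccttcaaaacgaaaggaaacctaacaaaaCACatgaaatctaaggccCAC
Hivep3: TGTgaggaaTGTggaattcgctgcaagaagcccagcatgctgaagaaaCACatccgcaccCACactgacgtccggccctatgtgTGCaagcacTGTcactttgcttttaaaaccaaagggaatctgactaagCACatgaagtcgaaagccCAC
The proteins translated from the longest coding transcripts had 2688 residues for *Hivep1*, 2430 for *Hivep2* and 2348 for *Hivep3*, and each held 4 matches to the C2H2 pattern in 2 pairs. Over the 51 residues of the second pair, *Hivep2* and *Hivep3* were 96.1% identical, *Hivep1* and *Hivep2* 92.2%, and *Hivep1* and *Hivep3* 90.2%. Over the first pair the identities were 92.2%, 88.2% and 86.3% in the same order, and over the whole aligned proteins they were 41.1%, 37.4% and 40.0%. In the transcripts, however, 0 windows of 50 bases were shared between members. Of the 50-base windows in the transcripts of each member, 0.406% (*Hivep1*), 2.45% (*Hivep2*) and 0.232% (*Hivep3*) occurred in a gene outside the family.

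All 3 genes are large and lie on the plus strand of GRCm39. *Hivep1* (ENSMUSG00000021366) lies on chr13:42205473-42346013 and its longest coding transcript has 9 exons. *Hivep2* (ENSMUSG00000015501) lies on chr10:13841518-14027128, with 11 exons in that transcript, and *Hivep3* (ENSMUSG00000028634) on chr4:119590981-119995242, with 9 exons. In each, 1 exon is far longer than the rest, at 5939, 5506 and 5487 bases. *Hivep3* spans the longest stretch, 404 kb, against 141 kb for *Hivep1* and 186 kb for *Hivep2*. Of the genes that overlap them, *Gm28289* shares 254 exon bases with *Hivep2* on the opposite strand and *Gm55960* shares 78 with *Hivep3* on the same strand. Both were listed at 0 counts in all 9 libraries. *Gm61288* shares 54 exon bases with *Hivep1* on the opposite strand and was not in the count table. How reads in shared exons were counted is not given, so these counts do not show whether such reads occurred.

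The promoters differed in composition. The 250 bases before the RefSeq start, each found at a single place on its chromosome of GRCm39, had a GC content of 88.4% in *Hivep1*, 75.2% in *Hivep2* and 46.4% in *Hivep3*, and the median of 32851 mouse promoters was 52.4%. A κB motif was found in *Hivep1* and *Hivep2* and in 7.25% of all promoters, and the EGR motif GCGNGGGCG in *Hivep1* and in 4.70% of all promoters. Both motifs are rich in G and C, and the GC content of *Hivep1* and *Hivep2* was above that of 99.98% and 96.1% of all promoters. The shares over all promoters do not take GC content into account. The κB and EGR sites are shown because Schnurri fingers bind κB-like DNA and EGR factors are among the genes measured here. The first line is chr13:42205465-42205494 and the second chr10:13841892-13841921, both on the plus strand of GRCm39, and the capitals mark the κB motif and, at the end of the first line, the EGR motif read from the other strand.
Hivep1: ccGGGGATCCCCtgctgcccCGCCCACGCg
Hivep2: agggcaccggGGGGCTTTCCtcccctcctc
In *Hivep3* neither motif was found in this window, and the SMAD motif GTCTG was, as in 42.2% of all promoters. The AP-1 motif TGANTCA (6.75% of all promoters) and the RUNX motif TGTGGT (14.05%) were not found in any of the 3 windows. Both strands were searched, no 2 of the matches overlapped, and a match is only a run of letters. In all 3 genes annotated GENCODE exons begin upstream of these starts. In *Hivep1* that exon begins at 42205473, so the EGR motif and the end of the κB motif lie inside it. The longest coding transcript of *Hivep2* begins at 13841596, upstream of its whole window and κB motif. That of *Hivep3* begins at 119671692, inside the window and upstream of the SMAD motif. The motifs of *Hivep2* and *Hivep3* thus lie downstream of these annotated starts.

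Total counts per library lay between 21390839 and 28234404, and CPM values (counts relative to the library total) were scaled by edgeR's TMM factors, which ranged from 0.989 to 1.017. Libraries of the same condition differed beyond counting error (chi-square per degree of freedom 2.64 to 4.90). Among the osteoblast and osteocyte markers, *Col1a1* and *Ibsp* were the most abundant, with means of 43257 and 12421 CPM in Control. *Mepe* and *Sost* had 3.44 and 1.39 CPM there. The summed level of these markers, mostly *Col1a1* and *Ibsp*, was 55422 to 59160 CPM in Control, 54177 to 57793 CPM with BGP and 49459 to 52722 CPM with NaHPO4. The 14 markers of fat, cartilage, blood, endothelium and muscle summed to 50.2 to 59.9, 55.1 to 57.6 and 45.6 to 58.2 CPM in the same order, mostly *Sox9* and *Fabp4*. *Kdr*, *Myod1* and *Myog* were at 0, and of the 4 of these markers that were tested, 0 passed an FDR of 0.05 in any comparison by edgeR's quasi-likelihood test.

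*Hivep1* was the most abundant member and hardly varied. Its expression was 34.8, 38.0 and 36.3 CPM in the 3 Control libraries, 33.8, 36.9 and 34.9 CPM with BGP, and 37.7, 35.8 and 34.2 CPM with NaHPO4. The 3 conditions overlapped throughout. The means were 36.3 ± 1.60 CPM (SD, n = 3), 35.2 ± 1.58 CPM and 35.9 ± 1.79 CPM.

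*Hivep2* was expressed at a lower level. In Control it had 18.04, 17.7 and 23.2 CPM, so that the third library lay well above the other two. With BGP it had 24.3, 22.9 and 21.8 CPM, and with NaHPO4 19.3, 19.1 and 19.2 CPM. The BGP libraries lay above every NaHPO4 library, and such a separation, in either direction, was seen in 21.2% of all tested genes. With Control, the BGP libraries overlapped only through the third Control library. The mean CPM was 19.6 ± 3.08 (SD, n = 3) for Control, 23.0 ± 1.22 for BGP and 19.2 ± 0.0794 for NaHPO4.

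*Hivep3* was the least abundant member and the one whose level differed most between the conditions. Its read counts were 116, 132 and 191 in Control, 293, 250 and 266 with BGP, and 230, 218 and 221 with NaHPO4. In CPM this was 5.42, 5.74 and 7.52 in the Control libraries, 13.2, 11.2 and 11.4 under BGP, and 8.37, 7.65 and 8.63 under NaHPO4. Every BGP library lay above every NaHPO4 library, and these above every Control library, although the third Control library came within reach of the lowest NaHPO4 library. The means were 6.23 ± 1.13 CPM (SD, n = 3), 12.0 ± 1.09 CPM and 8.22 ± 0.506 CPM. In bulk RNA, more cells with *Hivep3* transcripts and more transcripts per cell cannot be told apart.

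**Figure D1:**
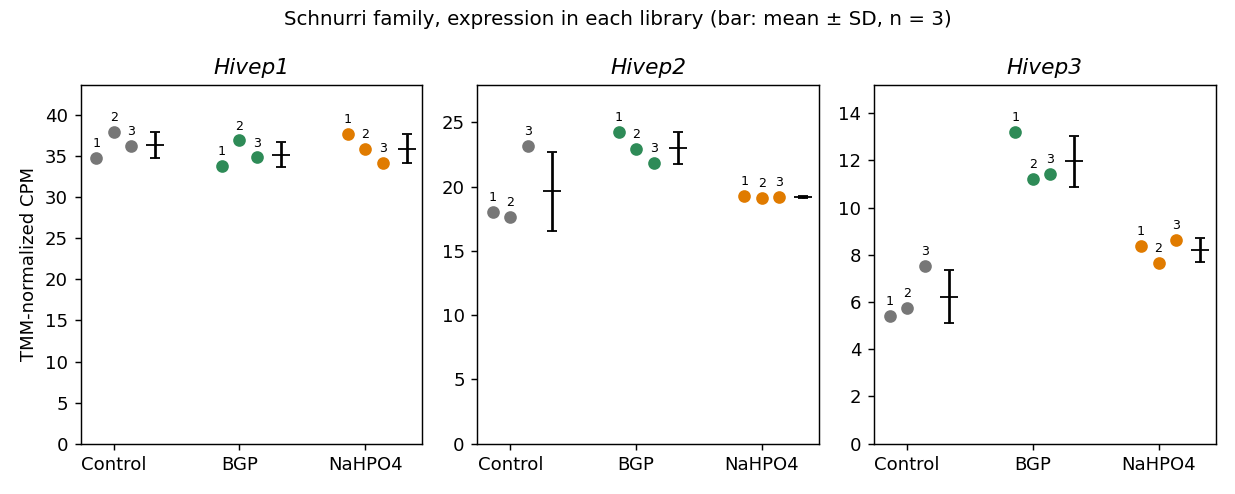
TMM-normalized CPM of *Hivep1*, *Hivep2* and *Hivep3* in each library (points, numbered by replicate) of Control, BGP and NaHPO4, with the mean and SD of the 3 libraries (bars) and axes that start at 0. *Hivep1* is level, the third Control library stands up in *Hivep2*, and *Hivep3* lies at 5.42 to 7.52 CPM in Control, 11.2 to 13.2 CPM with BGP and 7.65 to 8.63 CPM with NaHPO4.

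To compare the genes with each other, CPM was divided by the summed exon length (9318, 15041 and 17627 bases). Per kilobase, *Hivep1* lay between 3.63 and 4.08 CPM over the 9 libraries, *Hivep2* between 1.17 and 1.61, and *Hivep3* between 0.308 and 0.750. The order *Hivep1*, *Hivep2*, *Hivep3* thus held in every library, with no overlap between neighbours. With the length of the longest transcript in place of all exons, the Control means went from 3.90, 1.31 and 0.353 to 4.14, 1.89 and 0.526 CPM per kilobase, in the same order. Shares in the family therefore depend on the length used, and they were computed with the summed exon length only. By that length, *Hivep1* made up 70.2% of the family's CPM per kilobase in Control, 63.1% with BGP and 68.8% with NaHPO4. Its own mean was 3.90, 3.78 and 3.85 CPM per kilobase in these conditions. For *Hivep2* the shares were 23.4%, 25.5% and 22.8%. For *Hivep3* they were 6.33 ± 0.822% (SD, n = 3), 11.3 ± 1.07% and 8.34 ± 0.611%.

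**Figure D2:**
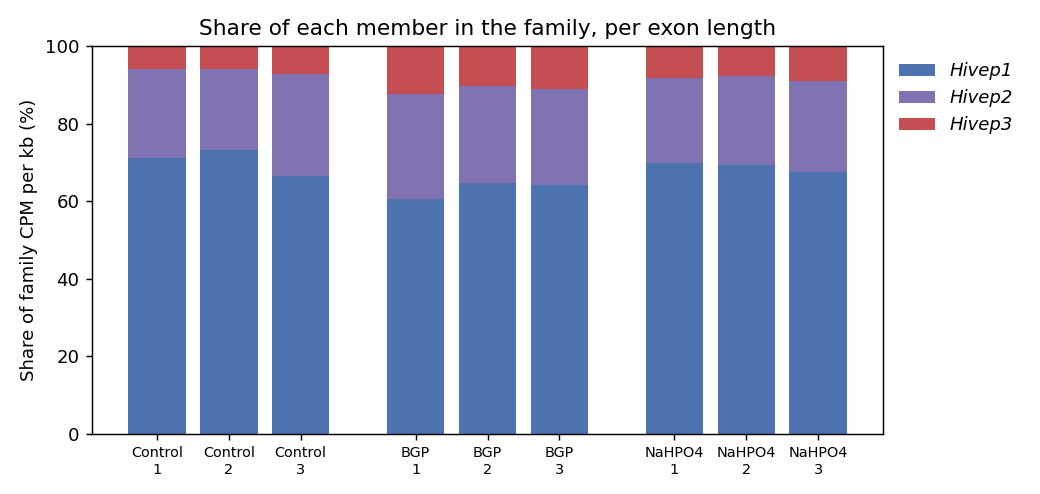
Share of each member in the family's CPM per kilobase of exon, in percent, for each of the 9 libraries (stacked bars). *Hivep1* takes the largest share in every library, and the mean share of *Hivep3* is 6.33% in Control, 11.3% with BGP and 8.34% with NaHPO4.

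Differences between conditions were fitted with edgeR's quasi-likelihood test over all 13679 genes, with Benjamini-Hochberg adjustment, and genes with an FDR below 0.05 and an absolute log2 fold change (log2FC) above 0.5 were taken as differentially expressed (DEGs). DEGs made up 0.556% of the tested genes for BGP versus Control, 0.716% for NaHPO4 versus Control and 0.585% for BGP versus NaHPO4. The comparisons share libraries, the first pair its Control libraries, and are given side by side. Compared to Control, BGP raised *Hivep3* 1.91-fold (log2FC 0.93, standard error 0.119, 95% interval 0.69 to 1.17). The log2FC of NaHPO4 versus Control was 0.39 (standard error 0.122, 95% interval 0.14 to 0.64), a fold of 1.31. Compared directly, BGP exceeded NaHPO4 by a fold of 1.46 (log2FC 0.54, standard error 0.112, 95% interval 0.31 to 0.77). Its libraries did not overlap in any of these comparisons, which was also so for 18.5%, 23.2% and 21.2% of all tested genes in the order above. Nothing is read from these values beyond the description, since they chose the gene.

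*Hivep2* did not pass the test in any comparison. With BGP versus Control its log2FC was 0.22 (standard error 0.0825, 95% interval 0.05 to 0.39, edgeR adjusted p = 0.182). For NaHPO4 versus Control it was -0.04 (adjusted p = 0.867, edgeR). Compared directly, *Hivep2* was at 1.20-fold with BGP over NaHPO4 (log2FC 0.26, 95% interval 0.09 to 0.42, adjusted p = 0.0537, edgeR). This was just short of an FDR of 0.05 and below the minimum log2FC. The BGP and NaHPO4 libraries did not overlap for *Hivep2*, which was also so for 21.2% of all tested genes. A two-sided exact permutation test gave p = 0.1 for *Hivep2* and cannot go lower with 3 libraries against 3. The comparison with Control depended on which Control library was left out. Without the third, the log2FC of BGP versus Control was 0.37 (adjusted p = 0.00730, edgeR) and that of NaHPO4 versus Control turned to 0.11 (adjusted p = 0.558). Leaving out the highest Control library raises these log2FC in any case. Without Control replicate 1 or 2, the log2FC of BGP versus Control was 0.17 and 0.15 (adjusted p = 0.514 and 0.505, edgeR). The comparison of BGP with NaHPO4 passed an FDR of 0.05 in the fits without Control replicate 1, 2 or 3 (adjusted p = 0.0477, 0.0396 and 0.0198, edgeR), with log2FC 0.26 in each, so that *Hivep2* was not a DEG in these fits either.

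*Hivep1* did not pass the test in any comparison either, and its intervals were narrow. The log2FC was -0.05 with BGP (95% interval -0.16 to 0.07, adjusted p = 0.799, edgeR) and -0.02 with NaHPO4 (-0.13 to 0.10, adjusted p = 0.917), and -0.03 between BGP and NaHPO4 (-0.15 to 0.09, adjusted p = 0.866). The intervals lie inside the minimum log2FC of 0.5 in both directions, as do those of *Hivep2*.

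**Figure D3:**
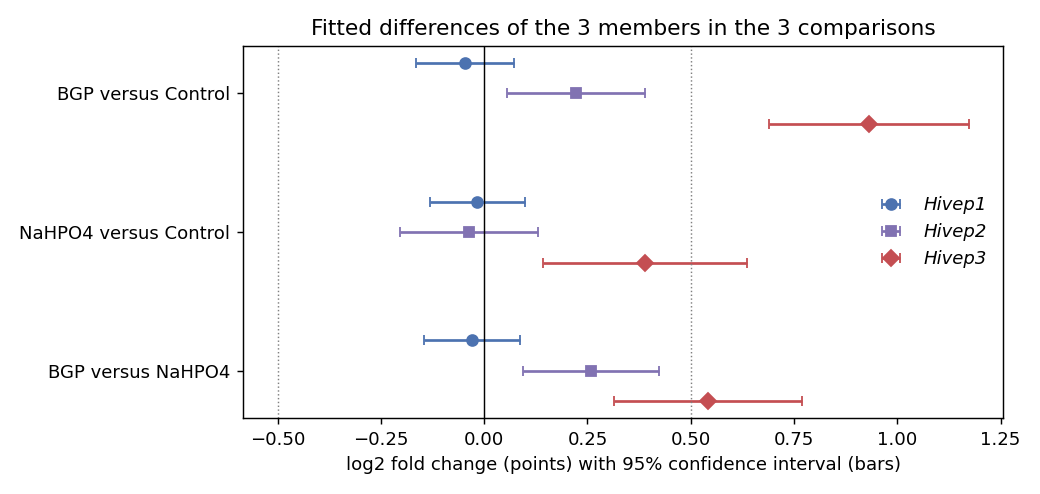
Fitted log2FC (points) and 95% intervals (bars) of the 3 members in the 3 comparisons, with the minimum log2FC of 0.5 dotted. *Hivep3* lies at 0.93, 0.39 and 0.54 from top to bottom, and *Hivep1* and *Hivep2* stay inside the dotted lines.

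The third Control library, which was the highest Control library for *Hivep2* and *Hivep3*, was also the highest for 11 of the 12 listed output genes of ERK signaling, and for 32.7% of all tested genes. This count was made after the values were seen. *Spry1*, an inhibitor of receptor tyrosine kinase signaling, had 37.5, 29.3 and 44.8 CPM in Control, and *Etv5*, an ETS factor, had 10.6, 9.09 and 13.8 CPM. What sets this library apart was not tested. Without it, *Hivep3* had a log2FC of 1.10 with BGP and 0.56 with NaHPO4. As for *Hivep2*, leaving out the highest Control library raises these values in any case. Without Control replicate 1 the log2FC of *Hivep3* was 0.84 with BGP and 0.30 with NaHPO4, and without Control replicate 2 it was 0.87 and 0.33.

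Genes of the pathways in which Schnurri proteins are known to act were described from lists. At any fold change, 2.53%, 7.38% and 5.38% of all tested genes passed an FDR of 0.05 in the 3 comparisons. All 9 partners of Schnurri-3 in osteoblasts were measured, and 0 passed in any comparison by edgeR's quasi-likelihood test. Their median log2FC was 0.06 with BGP and 0.08 with NaHPO4, beside medians of 0.00 over all genes. *Runx2*, the master regulator of osteoblasts and the protein that Schnurri-3 helps to degrade, had a mean CPM of 421 ± 4.57 (SD, n = 3) in Control, 423 ± 8.08 under BGP and 395 ± 14.7 under NaHPO4. *Atf4*, a bone transcription factor, had 239, 254 and 241 CPM in the same order, and *Wwp1*, the ubiquitin ligase, had 57.5, 60.1 and 61.7 CPM.

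Of 10 target genes of RUNX2 in bone matrix, 2 passed an FDR of 0.05 with BGP, both higher, and 1 higher and 5 lower with NaHPO4. *Spp1*, which encodes the matrix phosphoprotein osteopontin, was the only DEG, with log2FC 1.48 with BGP and 1.97 with NaHPO4 (adjusted p = 3.42e-23 and 6.76e-27, edgeR). The genes of both chains of type I collagen were among those that fell with NaHPO4, *Col1a1* (log2FC -0.22, adjusted p = 2.47e-05) and *Col1a2* (log2FC -0.17, adjusted p = 0.000180). With BGP their log2FC was -0.06 and -0.04. Between BGP and NaHPO4, 5 of the 10 were higher and *Spp1* was lower with BGP.

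Of the ERK output genes, 7 of 12 passed an FDR of 0.05 with BGP, all higher, and 4 of these were DEGs. With NaHPO4, 5 were higher and 1 was lower, with 3 DEGs. The median log2FC of the list was 0.45 and 0.29. *Etv4*, an ETS factor induced by ERK, had 4.67, 4.05 and 5.20 CPM in Control, 18.4, 17.7 and 14.96 CPM with BGP, and 15.4, 12.1 and 16.8 CPM with NaHPO4 (log2FC 1.87 and 1.66, adjusted p = 6.01e-14 and 2.22e-12, edgeR). *Dusp6*, the phosphatase that switches ERK off, rose with both (log2FC 1.23 and 0.86), more so under BGP (log2FC of BGP versus NaHPO4 0.37, adjusted p = 0.000127, edgeR). *Egr1*, an immediate early zinc finger factor, had 102, 98.8 and 109 CPM in Control, 205, 184 and 184 CPM with BGP, and 88.0, 83.8 and 83.6 CPM with NaHPO4. It rose with BGP (log2FC 0.89, adjusted p = 4.99e-18, edgeR) and fell with NaHPO4 (log2FC -0.28, adjusted p = 2.70e-05). *Spry4*, a feedback inhibitor, rose with BGP (log2FC 1.18, adjusted p = 0.0337, edgeR) from 0.698 CPM. *Fosl1*, a subunit of AP-1, rose with NaHPO4 (log2FC 1.21, adjusted p = 0.00133, edgeR) from 1.14 CPM. *Dusp5*, another ERK phosphatase, differed between the phosphates (log2FC 0.72 for BGP versus NaHPO4, adjusted p = 0.00212, edgeR).

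The partners of the other Schnurri proteins included 0 DEGs. Of 13 BMP-SMAD genes, 11 were tested and 0 passed an FDR of 0.05 in any comparison, with log2FC between -0.31 and 0.19 against Control. The lowest was *Cebpa*, at -0.31 with BGP and -0.29 with NaHPO4 (adjusted p = 0.116 and 0.0714, edgeR). *Id3*, a target of BMP-SMAD signaling, had 297, 282 and 286 CPM in Control, BGP and NaHPO4. The type II BMP receptor gene *Bmpr2* had 180, 192 and 192 CPM. *Pparg* and *Bmpr1b* were not tested, with 8 and 0 counts in all. Of 12 genes of NF-κB, 0 were DEGs, with log2FC between -0.12 and 0.34 against Control. The highest was that of *Nfkbie* with BGP (adjusted p = 0.0769, edgeR). The NF-κB subunit genes *Nfkb1* and *Rela* had log2FC -0.01 and -0.05 with BGP. *Tnfaip3*, an inhibitor of NF-κB named after its values were seen, was the only one past an FDR of 0.05, and it rose with BGP compared to Control (log2FC 0.26, adjusted p = 0.0294, edgeR) and to NaHPO4 (log2FC 0.23, adjusted p = 0.0328).

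SLIT3 is a secreted factor of osteoblasts whose gene lies downstream of Schnurri-3. *Slit3* had 5 counts in all 9 libraries together and was not tested. Of the 6 Slit and Robo genes, 3 were tested. *Slit2* rose with BGP (log2FC 0.32, adjusted p = 0.000111, edgeR) and NaHPO4 (log2FC 0.24, adjusted p = 0.00222). The receptor gene *Robo2* fell with NaHPO4 (log2FC -0.20, edgeR adjusted p = 0.0208), and its log2FC of BGP versus NaHPO4 was 0.31 (adjusted p = 0.000266). *Robo1* had 4.44, 5.33 and 4.65 CPM and did not pass.

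Of 15 other C2H2 zinc finger genes of skeletal cells, 13 were tested, 0 were DEGs, and 0 passed an FDR of 0.05 with BGP. With NaHPO4, *Zfp521*, a regulator of osteoblast maturation, fell (log2FC -0.24, adjusted p = 0.000266, edgeR). The more abundant *Zeb2* had 307, 304 and 313 CPM in Control, BGP and NaHPO4, and *Klf4* had 164, 159 and 151 CPM. The log2FC of the 13 genes with BGP lay between -0.18 and 0.07.

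**Figure D4:**
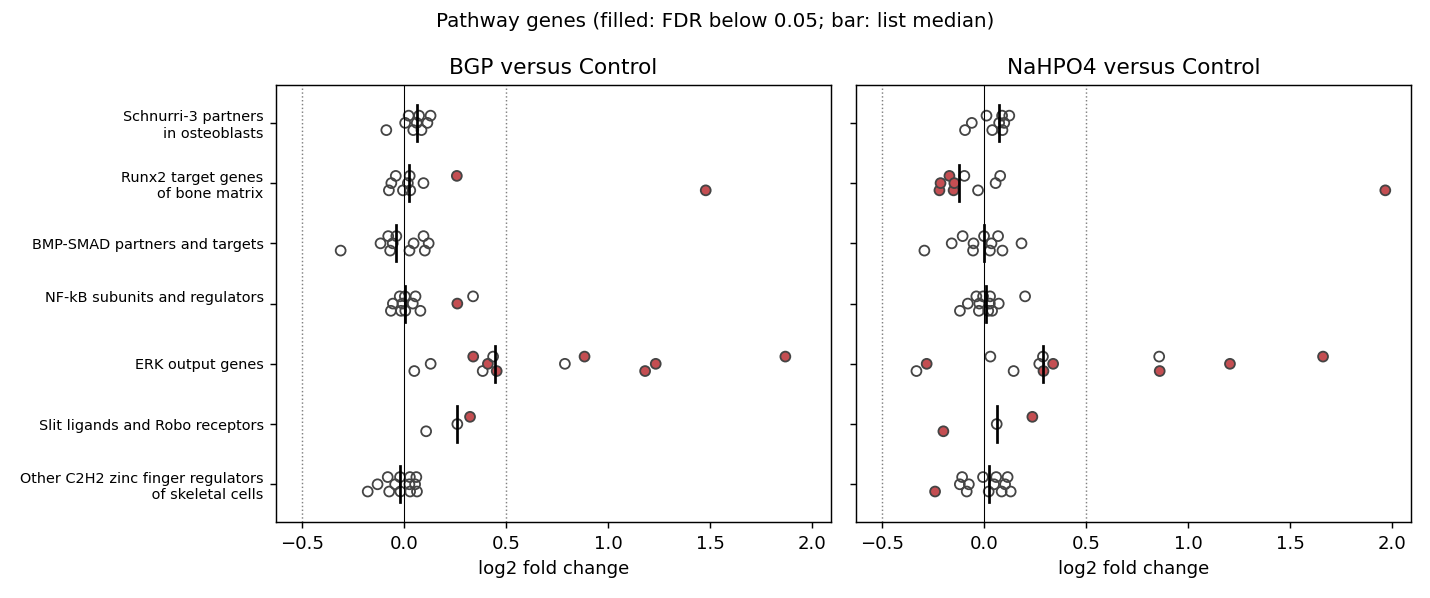
log2FC of the tested genes of 7 lists with BGP (left) and NaHPO4 (right) versus Control, each point a gene (filled where the FDR is below 0.05), with the list median as a bar and the minimum log2FC of 0.5 dotted. With BGP the ERK output genes have the highest median of the 7 lists, 0.45, and the partners of Schnurri-3 lie around 0.

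Of the 12 osteoblast and osteocyte markers, 6 were lower with BGP than in Control and 10 were lower with NaHPO4. Past an FDR of 0.05, 2 were higher and 0 lower with BGP, 1 was higher and 5 were lower with NaHPO4, and 6 were higher and 0 lower with BGP compared to NaHPO4. *Dmp1*, a matrix protein of osteocytes, was a DEG with both phosphates (log2FC 2.86 with BGP and 2.19 with NaHPO4). *Sost*, the osteocyte inhibitor of WNT signaling, fell with NaHPO4 (log2FC -1.68, adjusted p = 0.00272, edgeR) and had log2FC -0.21 with BGP (adjusted p = 0.852). Between BGP and NaHPO4 its log2FC was 1.48 (adjusted p = 0.0155).

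The genes around the 3 members were described as well. Within 500 kb of the start of *Hivep3*, 5 genes passed the filter, and 0 were DEGs. *Foxj3* had 37.1, 40.4 and 39.1 CPM in Control, BGP and NaHPO4, and *Ybx1*, an abundant RNA-binding protein, rose slightly with NaHPO4 (log2FC 0.15, adjusted p = 0.00587, edgeR). *Ppih*, *Ppcs* and *Frg2f1* had log2FC 0.02, -0.10 and -0.11 with BGP. Around *Hivep2*, *Phactr2*, *Fuca2*, *Adat2* and *Pex3* passed the filter, with log2FC between -0.07 and 0.07 with BGP. Around *Hivep1*, *Tmem170b* had log2FC 0.25 with BGP (adjusted p = 0.213, edgeR) and *Edn1*, the gene of endothelin-1, had -0.33 (adjusted p = 0.745).

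To find the genes whose pattern was most like that of *Hivep3*, log2 CPM was taken relative to each gene's mean over the 9 libraries, and the root-mean-square difference from *Hivep3* was computed, as a description. The closest were *Fam20a*, a Golgi pseudokinase (0.15), *Sema7a*, a membrane-anchored semaphorin (0.16), *Scml4*, a Polycomb-like protein (0.17), *Fam20c*, the Golgi kinase of secreted proteins (0.17), and *Tnfrsf12a*, the receptor of TWEAK (0.17). The median over 13678 genes was 0.43. In the family, *Hivep2* ranked 114 of 13678 with 0.30, and *Hivep1* ranked 7733 with 0.43. The 9 libraries are shared by all genes, the third Control library among them.

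**Figure D5:**
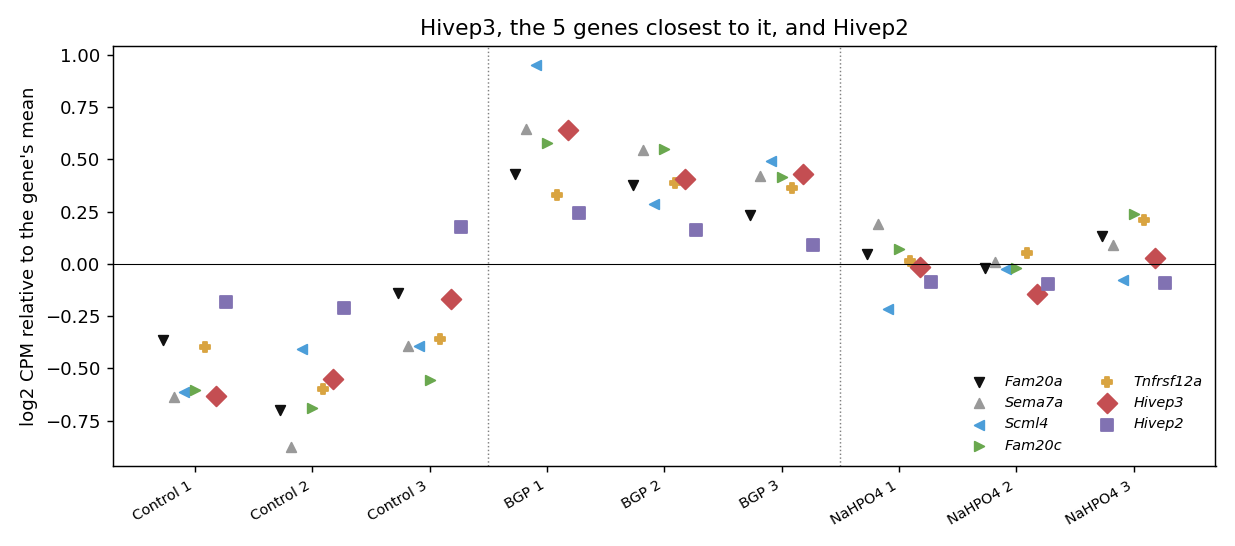
log2 CPM relative to each gene's own mean over the 9 libraries, for *Hivep3*, the 5 genes closest to it and *Hivep2*. The 5 genes were chosen for their likeness to *Hivep3* in these same libraries, so the pattern they share with it follows from the choice. *Hivep3* and these 5 lie below their mean in Control and above it with BGP, while *Hivep2* stands above its mean in the third Control library.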

How the data were processed

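The authors made stranded poly(A) libraries of differentiated MC3T3-E1 cells, checked the reads with FastQC and mapped them to GRCm39 in the AIR software; the aligner, the counting program and its strand setting are not given in the sources used here. The authors deposited whole-number read counts per Ensembl gene without normalization, and a TMM-scaled signal, the same counts times a factor for each library (1.01 to 1.32), which served 1 alternative. No column belonged to a sample outside the study.

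Conditions were taken from the sample labels. Starting from the deposited counts, filterByExpr (edgeR 4.0.16, count minimum 10) removed low genes, and libraries were scaled by TMM and fitted with glmQLFit in 1 model of all 9 libraries. The 3 comparisons were tested with glmQLFTest, adjusted over all tested genes, at the FDR and minimum log2FC of the study's methods. Standard errors came from the F statistic. The procedure was tested on simulated data. R 4.3.3, limma 3.58.1 and DESeq2 1.42.0 (for alternatives) were used. Loci, exons and coding sequences were read from GRCm39 with a later GENCODE release, and promoters from RefSeq. At this depth 10 counts in a library correspond to less than 1 CPM, and intervals cover counting error and the spread between libraries only.

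The members and the gene lists were chosen with earlier results of these data known. Genes named were the 3 members, in each list the DEGs of any comparison and otherwise up to 4 of the most abundant genes, tested neighbours within 500 kb, and the 5 genes closest to *Hivep3*. Genes outside this rule were named after their values were seen.

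Alternatives were DESeq2, edgeR's likelihood ratio test, a fit of only the 2 groups compared, scaling by DESeq2's size factors or by total counts only, limma on log2(value + 1) of the TMM table, no filter or at least 10 counts in every library, the replicate number as a block, each library left out, and for levels per kilobase the longest transcript.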

Additional observations from a re-analysis of the deposited data

How the results depend on the processing

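Over 18 alternatives, the log2FC of *Hivep3* stayed between 0.84 and 1.10 with BGP, 0.30 and 0.56 with NaHPO4, and 0.46 and 0.59 between BGP and NaHPO4. *Hivep2* depended on the processing. Between BGP and NaHPO4 it passed an FDR of 0.05, below the minimum log2FC, with the likelihood ratio test (log2FC 0.26, adjusted p = 0.0305), with only the 2 groups compared (0.26, adjusted p = 0.0210) and without a filter (0.26, adjusted p = 0.0255), and its adjusted p ranged from 0.0198 to 0.230. With single libraries left out, its log2FC ranged from 0.22 to 0.30 in that comparison, from 0.15 to 0.37 for BGP versus Control (adjusted p over all alternatives 0.00730 to 0.514) and from -0.11 to 0.11 for NaHPO4 versus Control. *Hivep1* changed sign around 0: with total counts only, its log2FC with NaHPO4 was 0.0078, and with libraries left out it ranged from -0.0535 to 0.0173, and from -0.0637 to 0.0072 between BGP and NaHPO4. Listed pathway genes that were DEGs numbered 2 between BGP and NaHPO4 and 4 with total counts only. The cause of these changes was not tested. Whether libraries of the same replicate number shared a culture or batch is not given. The correlation of deviations between conditions was -0.0092 to 0.0426 for same-numbered libraries and -0.0456 to 0.0239 for differently numbered ones. With 3 libraries per condition, such correlations cannot decide whether the libraries are paired. With a replicate block *Hivep2* had log2FC 0.23 with BGP versus Control (adjusted p = 0.168, edgeR) and 0.26 versus NaHPO4 (adjusted p = 0.0530). No call on a member changed with this block.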

Other observations

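Which Control library was the highest differed between the lists, as counted after the values were seen. The third Control library was the highest for 32.7% of all tested genes. By list, it was the highest for 7 of 10 RUNX2 target genes of bone matrix, 4 of 11 BMP-SMAD genes, 4 of 12 NF-κB genes and 1 of 9 partners of Schnurri-3. Among osteoblast and osteocyte markers it was the highest for 7 of 12, and among the other C2H2 zinc finger genes for 6 of 13. No explanation was tested.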
